A study of Mus musculus with 8 samples.

Results

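A group of 33 genes of the peroxisome was measured in liver of Rap1-deficient and wild-type mice. The group was set by symbol and holds 19 enzymes of the peroxisomal matrix, 2 ABC transporters, 10 peroxins (the proteins that build the organelle) and 2 other membrane proteins. The 33 genes were among 14066 that had a symbol and a probe with signal, and 40 of the 55681 probes of the array read them. Total RNA of 4 Rap1 -/- and 4 wild-type livers, from animals aged 10 weeks on a C57BL6/129SV (90%:10%) background, was hybridized to Agilent arrays in 1 colour (Cy3). Per the study, the deletion is present in the whole body from germline recombination of a floxed Rap1 allele by EIIa-driven cre, and the young mice profiled were females. The labels give neither sex nor feeding state. The study reports liver profiles of young females and, separately, of young females after fasting, and the labels do not give which these arrays are. The replicates are numbered in the labels without naming animals.

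Peroxisomes shorten fatty acids that mitochondria handle poorly, such as very long and branched chains, and complete the side-chain cleavage that makes bile acids, a task that belongs to the liver. In each round an oxidase passes electrons to oxygen, which yields hydrogen peroxide that catalase removes, and bifunctional enzymes and thiolases finish the cycle. Acyl-CoAs enter through ABC transporters of the membrane, products leave as carnitine esters or free acids, and all matrix enzymes are imported folded from the cytosol by the peroxins. Many of the enzymes are known targets of the nuclear receptor PPARα in rodents, the pathway that the study examined in these mice.

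None of the 33 genes passed the test between genotypes. The values are log2 fluorescence intensities relative to the 75th percentile of their own array, and a gene passed at an adjusted p under 0.05 in limma. The smallest adjusted p of the group was 0.770 and the largest 0.999. Over all genes tested, 2 passed, or 0.0142%, so few genes of any kind passed in this comparison. At an unadjusted p under 0.05, 5 of the 33 (15.2%) differed, against 6.36% of all genes. Acox2, Cat, Nudt7 and Ech1 had the higher mean in Rap1-deficient liver, where 4.01% of all genes met that limit in this direction. Acox3 had the lower mean, where 2.35% of all genes did.

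These 5 genes are all matrix enzymes, so that 5 of 19 matrix enzymes met the unadjusted limit and 0 of 10 peroxins, 0 of 2 transporters and 0 of 2 other membrane proteins did. Differences were small throughout. The median log2 fold change (Rap1-deficient minus wild-type) was 0.12 over the 33 genes, 0.12 over the matrix enzymes and 0.09 over the peroxins, against 0.02 over all genes. Of the 33, 25 had a value above 0, as did 56.1% of all genes. Nudt7 was the only member whose difference exceeded 0.5 on the log2 scale in size. The medians moved with the normalization: in the authors' own table of values the median was 0.05 over the 33 genes, 0.07 over the matrix enzymes and 0.02 over the peroxins, with 22 of 33 values above 0.

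**Figure D1:**
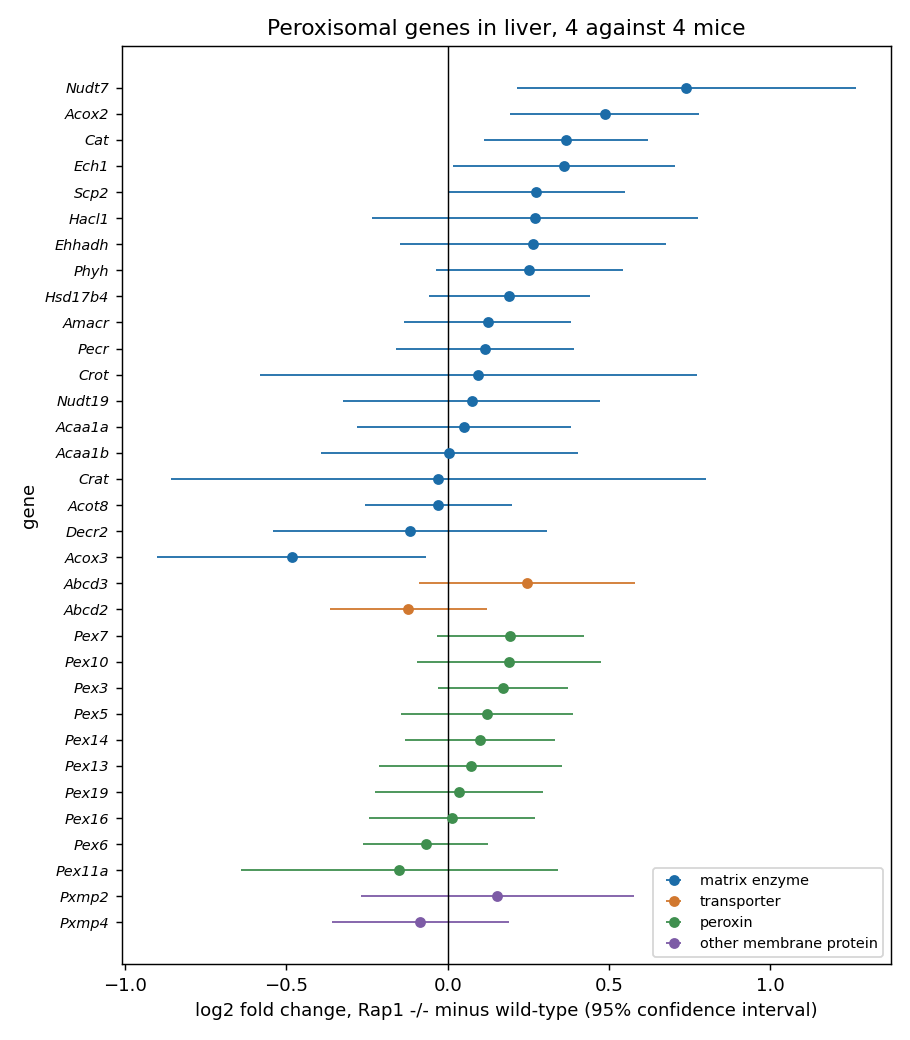
Log2 fold change (Rap1-deficient minus wild-type, x axis) of each of the 33 genes (y axis), as points with the 95% confidence interval from limma, coloured by class. The intervals of Nudt7, Acox2, Cat and Ech1 lie above 0 and that of Acox3 below, and every interval of the transporters, peroxins and other membrane proteins spans 0.

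The arrays and the targeted gene were checked first. Signal stood well above background on all 8 arrays for each of the 33 genes, and for 50.03% to 65.3% of probes per array. The 75th percentile that scales the values lay between 179 and 209 in wild-type and between 220 and 227 in Rap1-deficient arrays, so that every Rap1-deficient array was the brighter. Terf2ip, the gene of RAP1, was read by 2 probes. Probe A_52_P381806 gave signal well above background in 4 of 4 wild-type and 0 of 4 Rap1-deficient samples and was at least 19.0-fold lower in the latter (adjusted p = 7.1e-06 over probes), while probe A_55_P2094079 was 1.20 higher on the log2 scale (adjusted p = 0.13 over probes). Probe A_55_P2094079, the brighter over the 8 arrays, stood for Terf2ip in the test over genes (adjusted p = 0.073 in limma). Terf2ip was thus not among the 2 genes that passed there. No source used here gives which of the 2 probes lies in the deleted part.

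Among liver cell markers, all 8 hepatocyte genes were detected. Their summed linear level ran from 6163 to 7052 in wild-type and from 5971 to 6126 in Rap1-deficient arrays, and 5 of the 8 had a log2 fold change above 0 (median 0.03). Alb, which is a large part of that sum, was lower in all Rap1-deficient arrays (-0.21, adjusted p = 0.77). Of 5 bile duct markers, 4 had a value above 0 (median 0.46) and Krt7 gave -0.07. The sum over the 5 ran from 3.18 to 4.64 in wild-type and from 3.99 to 8.01 in Rap1-deficient liver. Spp1, which is a large part of that sum, had log2 means of 1.25 in wild-type and 1.94 in Rap1-deficient liver. The means of Krt19, Krt7, Epcam and Sox9 were below 0 in both genotypes, so the sum says little of these dimmer markers. Every marker of the hepatocyte and bile duct lists had signal on enough arrays to be tested. All tested markers of Kupffer cells and macrophages (5 of 6 listed, median -0.11) had a value below 0. So did those of T and NK cells (3 of 5, median -0.14) and neutrophils (3 of 5, median -0.70). Above 0 were 2 of 5 sinusoidal endothelial, 1 of 4 B cell, 4 of 6 stellate and 2 of 2 tested erythroid markers, against 56.1% of all genes. No adipocyte marker could be tested. The part of these cell types in the peroxisomal values was not tested. In bulk tissue, fewer cells of a type and less RNA per cell cannot be told apart.

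The first step of peroxisomal β-oxidation is catalyzed by acyl-CoA oxidases. Acox2, the oxidase of bile acid intermediates, had values of 5.89, 5.52, 5.81 and 5.80 in wild-type mice and 6.17, 6.40, 6.39 and 6.003 in Rap1-deficient mice (probe A_66_P138319, chromosome 14). All 4 Rap1-deficient values lay above all 4 wild-type values. The means were 5.76 ± 0.16 and 6.24 ± 0.19 (SD, n = 4 each), a log2 fold change of 0.49 (SE 0.13) or 1.40-fold. A two-sided exact permutation test gave p = 0.0286, the lowest value that 8 arrays in groups of 4 can reach, and limma an adjusted p of 0.770. The genotypes did not overlap in 2 of the 33 genes (6.06%), Acox2 and Cat, against 4.31% of all genes measured on all 8 arrays.

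Acox3, an oxidase of branched acyl-CoAs such as pristanoyl-CoA, ran the other way. Its values were 3.07, 3.17, 2.81 and 2.50 in wild-type and 2.69, 2.09, 2.56 and 2.27 in Rap1-deficient mice, with the lowest wild-type value inside the Rap1-deficient range. The log2 fold change was -0.48 (SE 0.18, exact permutation p = 0.0857, adjusted p = 0.770 in limma). Its second probe, A_52_P745, gave 0.01, and the values of the 2 probes thus disagree about this gene. Without wild-type replicate 1 or 2, or Rap1-deficient replicate 2 or 4, Acox3 no longer met the unadjusted limit.

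The next steps of the cycle are taken by the bifunctional enzymes Ehhadh and Hsd17b4. Ehhadh, which acts on dicarboxylic and long straight chains, had values of 4.17, 4.26, 4.36 and 5.01 in wild-type and 4.76, 4.60, 4.65 and 4.85 in Rap1-deficient mice. Wild-type replicate 4 was the highest of all 8, while the other wild-type values were the 3 lowest. The log2 fold change was 0.27 (SE 0.18) overall and 0.45 without that replicate. Hsd17b4, the enzyme of branched chains and bile acid precursors, gave 0.19 (SE 0.11), and its wild-type values from 6.36 to 6.74 overlapped the Rap1-deficient values from 6.57 to 6.80.

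Thiolases close the cycle. The thiolases Acaa1a and Acaa1b, near-identical copies in the mouse whose signals may not be fully separate on the array, gave log2 fold changes of 0.05 (95% interval -0.28 to 0.38) and 0.00 (-0.39 to 0.40). Scp2, which encodes a thiolase of branched chains and a lipid carrier, had values of 8.04, 8.17, 8.22 and 8.51 in wild-type and 8.37, 8.64, 8.51 and 8.52 in Rap1-deficient mice. The first 3 wild-type values were the lowest of the 8, and wild-type replicate 4 lay among the Rap1-deficient values. The log2 fold change was 0.27 (95% interval -0.00 to 0.55, adjusted p = 0.78), and 0.16 at its second probe. Over the 7 genes of the β-oxidation core, 6 had a value above 0 and the median was 0.19.

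Cat encodes catalase, which breaks down the hydrogen peroxide that the oxidases make. Its values were 4.63, 4.52, 4.89 and 4.81 in wild-type and 5.12, 5.15, 5.11 and 4.94 in Rap1-deficient mice (probe A_55_P2148873, chromosome 2). The genotypes did not overlap, although Rap1-deficient replicate 4 was within 0.05 of wild-type replicate 3. The means were 4.71 ± 0.17 and 5.08 ± 0.09 (SD, n = 4 each), a log2 fold change of 0.37 (SE 0.11) or 1.29-fold, with an exact permutation p of 0.0286 and an adjusted p of 0.770 in limma. A second probe gave 0.17 with overlapping genotypes.

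Nudt7 had the largest difference of the 33 genes. It encodes a peroxisomal CoA diphosphatase, which degrades coenzyme A and its esters in the organelle. Its values were 5.45, 5.52, 6.19 and 5.85 in wild-type and 6.41, 7.02, 6.04 and 6.50 in Rap1-deficient mice (probe A_55_P1953103, chromosome 8). Only wild-type replicate 3 and Rap1-deficient replicate 3 overlapped. The means were 5.75 ± 0.34 and 6.49 ± 0.40 (SD, n = 4 each), a log2 fold change of 0.74 (SE 0.23) or 1.67-fold, with an exact permutation p of 0.0571 and an adjusted p of 0.770 in limma. The second probe of Nudt7, A_52_P136914, gave 0.79 (SE 0.20, adjusted p = 0.81 over probes), and there the genotypes did not overlap: wild-type values ran from 3.74 to 4.55 and Rap1-deficient values from 4.63 to 5.13.

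Nudt7 is also a neighbour of the targeted gene. It was the only one of the 33 genes on chromosome 8, where Terf2ip lies, and by gene order in RefSeq (GRCm38.p6) only 2 tested genes, Mon1b (0.12) and Adamts18 (-0.20), stood between them. Wwox, the next tested gene after Nudt7, gave -0.32 and its genotypes did not overlap. Whether the place of Nudt7 beside the deletion has a part in its values was not tested.

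**Figure D2:**
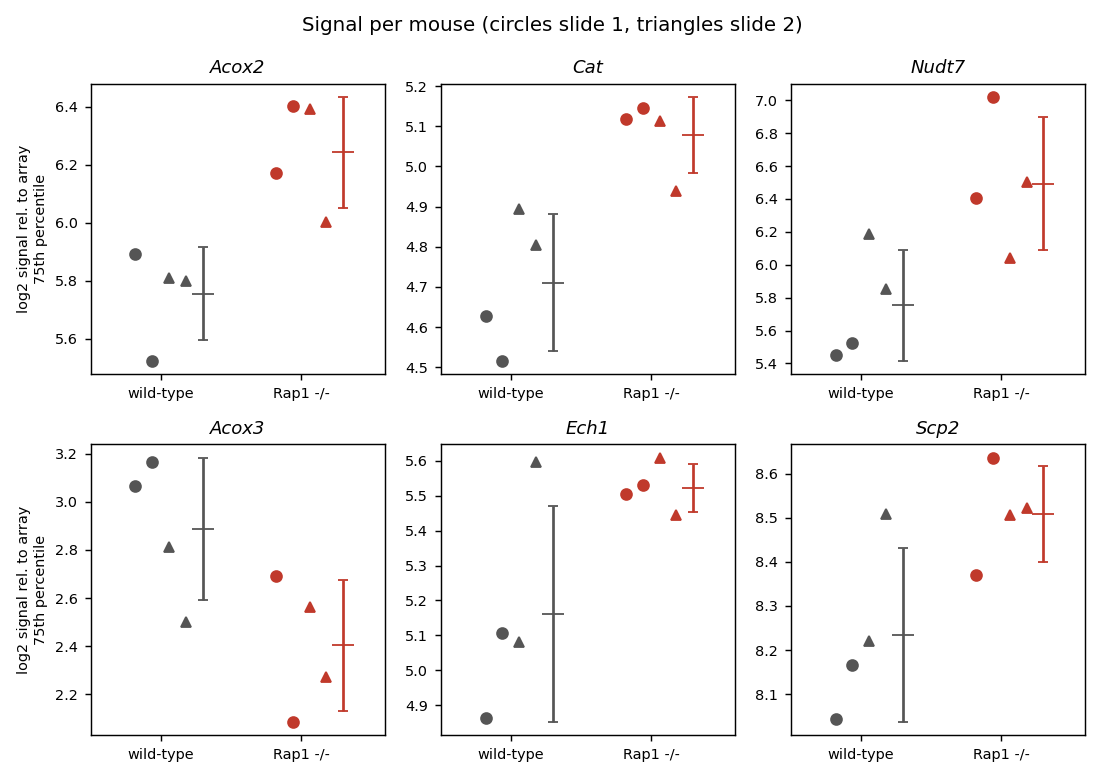
Log2 signal relative to the array's 75th percentile (y axis) for the 6 members with the smallest p, 1 panel a gene, with wild-type in grey and Rap1-deficient in red. Circles are slide 1, triangles slide 2, and bars mean ± SD of 4 arrays; Acox2 and Cat do not overlap between genotypes, and in Nudt7 the gap is wider among circles than among triangles.

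The remaining enzymes of CoA and carnitine handling gave values close to 0. Crot, the carnitine octanoyltransferase that exports shortened acyl groups, had the widest spread of them except Crat: wild-type values were 5.69, 5.29, 5.06 and 6.25, and Rap1-deficient values 5.38, 6.26, 5.79 and 5.24. High and low mice occurred in both genotypes (log2 fold change 0.09, SE 0.30). Crat, the carnitine acetyltransferase, was dim and ran from -2.81 to -1.16 over the 8 arrays, the largest range of any member, with a log2 fold change of -0.03 (95% interval -0.86 to 0.80). Nudt19, a second CoA diphosphatase, gave 0.07 (SE 0.18), and Acot8, a thioesterase that releases free acids, gave -0.03 (SE 0.10).

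Alpha-oxidation removes a carbon from phytanic acid, whose methyl branch blocks β-oxidation. Phyh, the hydroxylase of the first step, had values of 7.56, 7.75, 7.92 and 7.82 in wild-type and 8.20, 7.98, 7.76 and 8.11 in Rap1-deficient mice. All Rap1-deficient values but that of replicate 3 lay above the wild-type range, and the log2 fold change was 0.25 (SE 0.13, exact permutation p = 0.0857, adjusted p = 0.79 in limma). Hacl1, the lyase of the following step, gave 0.27 (SE 0.22) with values of 6.18 to 7.12 in Rap1-deficient mice that overlapped most of the wild-type range of 6.15 to 6.90. Amacr, the racemase that turns branched acyl-CoAs into the form the oxidases accept, gave 0.12 (SE 0.11).

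Auxiliary enzymes prepare unsaturated acyl-CoAs for the cycle. Ech1, a dienoyl-CoA isomerase, had values of 4.86, 5.11, 5.08 and 5.60 in wild-type and 5.50, 5.53, 5.61 and 5.45 in Rap1-deficient mice. The Rap1-deficient values lay close together (SD 0.07) and wild-type replicate 4 was within their range. The log2 fold change was 0.36 (SE 0.15) or 1.28-fold, with an adjusted p of 0.77 in limma. Ech1 did not meet the unadjusted limit under normexp or quantile normalization, in the authors' table, without a filter, with the replicate block, or in 7 of the 8 fits that left out a replicate (all but that without wild-type replicate 4). Pecr, an enoyl-CoA reductase, gave 0.12 (SE 0.12), and Decr2, the peroxisomal dienoyl-CoA reductase, gave -0.12 (SE 0.19).

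Sequences before the starts of these genes were searched because RAP1 belongs to the complex that binds telomeric TTAGGG repeats. RefSeq promoter windows (250 bases before to 50 after a start, GRCm38.p6) were given for 27 of the 33 genes. TTAGGG occurred on either strand in 3 of the 27 (11.1%), Ech1, Pecr and Phyh, and in 12.2% of the 11223 tested genes with a window. The 3 matches are shown in the direction of the gene with up to 30 bases on either side, ending at the start where it comes first, with TTAGGG or its complement CCCTAA in capitals, to make plain that each is a lone copy.
Ech1 (chr7:28825282-28825337, plus strand): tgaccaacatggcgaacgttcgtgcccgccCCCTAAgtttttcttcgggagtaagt
Pecr (chr1:72284322-72284359, minus strand): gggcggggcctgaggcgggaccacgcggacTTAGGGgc
Phyh (chr2:4918773-4918838, plus strand): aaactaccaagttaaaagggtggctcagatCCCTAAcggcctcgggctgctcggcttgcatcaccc
The matches begin 26, 8 and 193 bases before the start. No member had 2 copies in a row, which 1 of the tested genes had. AGGTCA, the letters of a nuclear receptor binding half-site, occurred on either strand in 3 of the 27 (Cat, Phyh and Scp2) and in 16.3% of tested genes, and a direct repeat of it with 1 base between, the arrangement that PPARα binds, in 0 of the 27 and 0.0624% of tested genes. These are matches of letters in a short window and say nothing of binding there or elsewhere.

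The ABC transporters carry acyl-CoAs into the organelle. Abcd3, the transporter of branched and dicarboxylic acyl-CoAs and a major protein of the membrane, had values of 6.93, 6.93, 6.74 and 6.70 in wild-type and 7.01, 6.85, 7.48 and 6.95 in Rap1-deficient mice. Rap1-deficient replicate 3 stood above all others, and the log2 fold change of 0.25 (SE 0.15, adjusted p = 0.82) became 0.11 without it. Abcd2, a transporter of very long chains, was close to the 75th percentile of the arrays, between -0.43 and -0.00, and gave -0.12 (SE 0.11).

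The peroxins varied less between mice than the enzymes did, with a median SD of 0.13 in wild-type and 0.14 in Rap1-deficient liver, against 0.28 and 0.19 for the matrix enzymes. Their differences ran from -0.15 to 0.19, and 8 of 10 were above 0. Adjusted p values in limma lay between 0.79 and 0.99. The 95% intervals of the 10 genes, each for its gene alone, reached as far as -0.64 (Pex11a) and 0.48 (Pex10) on the log2 scale. They are not a joint bound on the differences.

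Pex3, Pex16 and Pex19 insert membrane proteins into the organelle. Pex3, the membrane anchor for Pex19, had values of 2.03, 2.13, 2.16 and 2.23 in wild-type and 2.36, 2.23, 2.37 and 2.30 in Rap1-deficient mice. The lowest Rap1-deficient value fell just under the highest wild-type value, and the log2 fold change was 0.17 (SE 0.09, exact permutation p = 0.0571). Pex16, its partner in the membrane, gave 0.01 (SE 0.11), and Pex19, the soluble receptor, gave 0.04 (SE 0.11).

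Pex5 and Pex7 are the receptors that recognize the signals of matrix enzymes. Pex7, which carries thiolase and Phyh, had values of 3.58, 3.70, 3.79 and 3.88 in wild-type and 3.97, 3.81, 4.00 and 3.95 in Rap1-deficient mice. Only Rap1-deficient replicate 2 and wild-type replicate 4 overlapped, with a log2 fold change of 0.19 (SE 0.10, exact permutation p = 0.0571). Pex5, which carries most matrix enzymes, gave 0.12 (SE 0.12). The docking proteins of the membrane, Pex13 and Pex14, gave 0.07 (SE 0.13) and 0.10 (SE 0.10).

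Pex10 is a ubiquitin ligase that acts on the receptors, and Pex6 an ATPase that pulls them out of the membrane for reuse. Pex10 gave 0.19 (SE 0.13). Pex6 had the narrowest range of the 33 genes, 3.98 to 4.13, and a log2 fold change of -0.07 (SE 0.09). Its dimmer probe, A_55_P2162530, gave -0.30 (SE 0.11, adjusted p = 0.81 over probes), with wild-type values of 1.21 to 1.53 above all Rap1-deficient values of 0.91 to 1.12. The values of the 2 probes thus differ in size for this gene.

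Pex11a, which promotes elongation and division of peroxisomes and is induced by PPARα ligands, had values of 5.34, 6.08, 5.57 and 6.16 in wild-type and 5.68, 5.69, 5.25 and 5.93 in Rap1-deficient mice. The genotypes overlapped over most of their range (log2 fold change -0.15, SE 0.22). Of the other membrane proteins, Pxmp2, a channel for small solutes, gave 0.15 (SE 0.19), and Pxmp4 gave -0.08 (SE 0.12).

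**Figure D3:**
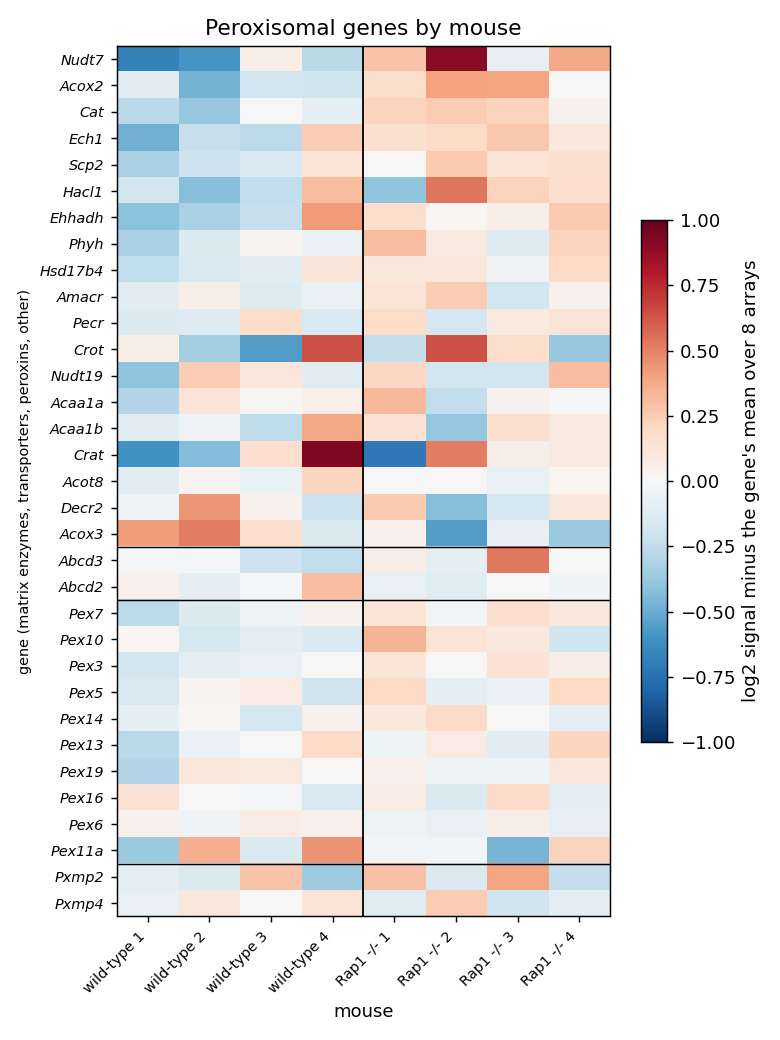
Log2 signal minus the gene's mean over the 8 arrays (colour, from -1 in blue to 1 in red) for the 33 genes (rows, by class and fold change) in each array (columns), with a black line between genotypes. Wild-type replicate 1 was the lowest of the 8 arrays in 13 of the 33 genes, and peroxins are paler than most matrix enzymes.

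The samples did not contribute evenly. Wild-type replicate 1 was the lowest of the 8 arrays in 13 of the 33 genes and the highest in 0, and it was the lowest in 9 of 19 matrix enzymes. It was also the lowest in 21.0% of all genes, and it had the lowest 75th percentile. Wild-type replicate 4 was the lowest in 0 matrix enzymes and the highest in 4. Without wild-type replicate 1, 20 of the 33 values were above 0, against 51.8% of all genes, and 3 met the unadjusted limit (Acox2, Cat and Nudt7), against 4.71% of all genes. Without wild-type replicate 4, 8 met it, as Ehhadh, Hsd17b4 and Scp2 joined the 5, against 5.69% of all genes, and the median of the matrix enzymes was 0.27.

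The arrays came from 2 slides, each with 2 of either genotype. On slide 1, which held replicates 1 and 2, the matrix enzymes had a median log2 fold change of 0.33, and on slide 2, which held replicates 3 and 4, of 0.07 (all genes 0.05 and 0.01). The difference was the larger in size on slide 1 in 16 of the 19 matrix enzymes and in 24 of the 33 genes (72.7%), against 56.0% of all genes. On slide 1 alone, 6 members met the unadjusted limit, as did 4.31% of all genes, and on slide 2 alone, 0 members did, against 3.73% of all genes.

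Nudt7 differed most between slides, with 1.23 on slide 1 and 0.25 on slide 2. The values of the other 4 enzymes on slides 1 and 2 were 0.58 and 0.39 for Acox2, 0.56 and 0.18 for Cat, 0.53 and 0.19 for Ech1, and -0.73 and -0.24 for Acox3. Each of the 5 kept its direction on both slides, as did 23 of the 33 genes (69.7%) and 54.9% of all genes. The 5 were picked on both slides together, so their direction is no separate check, and the sizes differed between slides. The interaction of slide and genotype, which tests this difference itself, met the unadjusted limit in Nudt7 only and in no member after adjustment (all at an adjusted p of 1.00 in limma). In the fit that holds slide as a block, adjusted p values of the 33 genes lay between 0.77 and 1.00. Within each slide the wild-type arrays held positions 1 and 2 and the Rap1-deficient arrays positions 3 and 4, so position and genotype cannot be told apart.

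**Figure D4:**
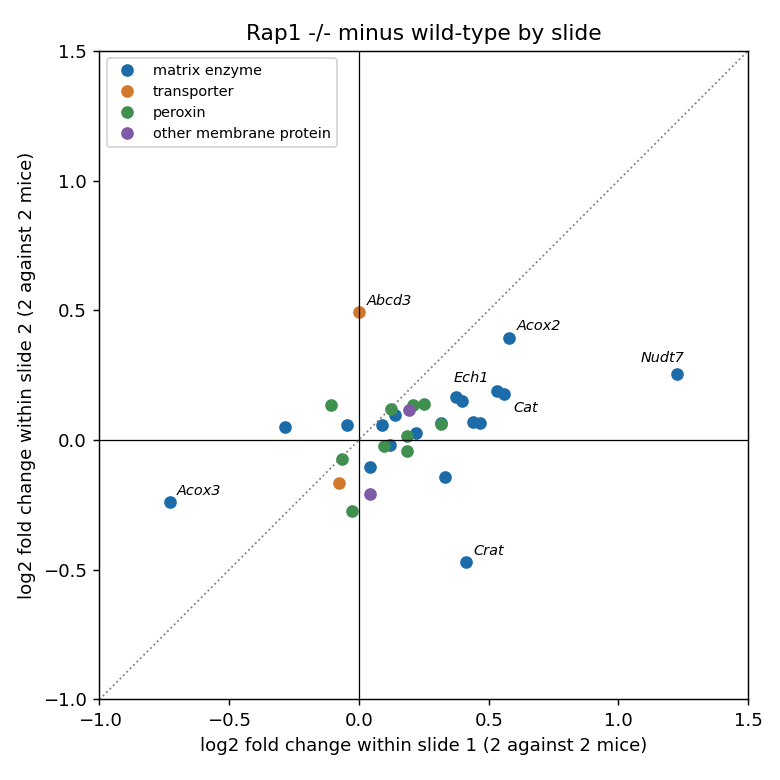
Log2 fold change (Rap1-deficient minus wild-type) within slide 1 (x axis) and within slide 2 (y axis) of the 33 genes, each from 2 against 2 arrays and coloured by class, with equal values on the dotted line. Nudt7 lies at 1.23 and 0.25, Acox3 at -0.73 and -0.24, and the genes of slide 1 differences over 0.3 all lie under the dotted line.

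Other genes of the organelle were read from a list of 58, of which 53 were tested. None passed at an adjusted p under 0.05, and 1 (Gnpat, 1.89%) met the unadjusted limit, against 6.36% of all genes. Of the 53, 40 (75.5%) had a value above 0, against 56.1% of all genes. Their median was 0.11, close to the 0.12 of the 33 genes. The genotypes did not overlap in 2 (3.77%), Gnpat and Pex11g, against 4.31% of all genes measured on all 8 arrays. All 9 genes listed under amino acid, glyoxylate and purine oxidation were above 0 (median 0.14), with the smallest value 0.00 (Uox). That list also holds the kinases Mvk (0.49) and Pmvk (0.36), which are not enzymes of these oxidations. Above 0 were also 5 of 6 genes of redox and detoxification and 12 of 18 of fatty acid activation and oxidation (median 0.06). Membrane transport genes had 2 of 5 above 0.

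Gnpat, which starts the synthesis of ether lipids in the peroxisome, had values of 3.02, 3.104, 3.32 and 3.33 in wild-type and 3.38, 3.52, 3.45 and 3.39 in Rap1-deficient mice, without overlap. The log2 fold change was 0.24 (SE 0.10, adjusted p = 0.78 in limma). Pex11g, a relative of Pex11a, gave 0.23 (SE 0.11), with wild-type values of 5.33 to 5.702 under all Rap1-deficient values of 5.72 to 5.87. Pex2, a ubiquitin ligase that works with Pex10, gave 0.21 (SE 0.10), and Mpv17l, a membrane protein related to Pxmp2, gave 0.64 (SE 0.30) with wild-type values from -0.21 to 1.15. Gnpat and Pex11g are also on chromosome 8, at 95 and 633 tested genes from Terf2ip on opposite sides, among 6 peroxisomal genes there.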

How the data were processed

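Arrays of 8 livers were analysed. Per the file headers, spot intensity was extracted with Agilent Feature Extraction 10.7.3.1 (the study's methods name another release), and the deposited processed signal is a background-subtracted intensity with no normalization between arrays. A table of log2 values deposited by the authors lay within 0.05 of normexp (offset 50) and quantile normalized intensities in 99.5% of cases. RNA Integrity Numbers were 6.5 to 8.5 per the labels. Control and outlier spots were left out, repeated spots averaged as log2, and each array's 75th percentile subtracted. Accessions were matched to RefSeq symbols (26056 of 55681 probes). The array annotation is of build mm9, so gene positions are not given. A probe was kept with signal well above background on at least 4 of 8 arrays (31068 probes), and the brightest tested probe stood for a gene (14066 genes). Genotypes were compared with limma 3.58.1 in R 4.3.3, with Benjamini-Hochberg adjustment over all genes, and, per gene, by an exact permutation test (two-sided, 70 partings). SE and intervals (95%) are limma's. The procedure was tested on simulated data. Alternatives were another normalization (normexp on median spot and background signals, since mean signals were not used here), filter, probe rule and variance model, slide or replicate block, each slide alone and each replicate left out. The slide interaction and the second probes on their own were added after seeing the data. All 33 members are named, with Terf2ip and the 4 other peroxisomal genes of smallest p. Members and lists were chosen with earlier results of these data known. P values set a difference between genotypes against the variation among these samples. The number of arrays limits the precision, and no spot was saturated.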

Additional observations from a re-analysis of the deposited data

Results flagged for a closer look

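Of 66 groups of 4 arrays (33 genes in 2 genotypes), 3 held a value far from the other 3 by Dixon's criterion, and chance alone gives about 1 in 20. Acaa1b in Rap1-deficient replicate 2 was at 5.913, under the others at 6.389 to 6.461. Cat in Rap1-deficient replicate 4 was at 4.939, under the others at 5.114 to 5.146 and above every wild-type value. Pecr in wild-type replicate 3 was at 7.528, over the others at 7.186 to 7.212.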

How the results depend on the processing

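No member passed at an adjusted p under 0.05 under any alternative run. The number of all genes that passed, 2 as reported, was 0 under normexp with quantile normalization, in the authors' table, on slide 1 alone and with the replicate block, 1 under quantile normalization, without a filter, with the filter on all 8 arrays, with the slide block, on slide 2 alone and whichever replicate was left out, and 3 with the mean of a gene's probes and with trended and robust variance. Replicate numbers did not pair the samples (same-number correlations of deviations 0.09, -0.18, -0.07 and 0.10). In the paired fit with the replicate block, 4 members met the unadjusted limit, against 6.26% of all genes. That count, 5 as reported, was 0 on slide 2 and between 3 and 8 without single replicates: 3 without wild-type replicate 1 or 2 or Rap1-deficient replicate 2, and 8 without wild-type replicate 4. Of all genes, 3.73% met the limit on slide 2 and 4.71% to 6.55% without single replicates. Members without overlap, 2 as reported, were 1 under quantile normalization, 3 with the mean of a gene's probes, and 0 under normexp and in the authors' table. The share of all genes without overlap is given for the reported setting only. The median of the members was 0.0456 in the authors' table, 0.186 on slide 1 and 0.0914 to 0.141 without single replicates. That of the matrix enzymes was 0.0727 under normexp, 0.0774 under quantile normalization, 0.0676 in the authors' table, 0.332 on slide 1 and 0.133 to 0.273 without single replicates, and that of the peroxins 0.0119 under normexp, 0.0181 in the authors' table, 0.155 on slide 1 and 0.0590 to 0.117 without single replicates. Of the 33 genes, 11 changed sign under at least 1 alternative, all with reported values between -0.12 and 0.09. Under normexp, Acaa1b was at -0.0918, Pex13 at -0.00651 and Pex16 at -0.0272; under quantile normalization, Acaa1b at -0.0794, Pex16 at -0.0309 and Pex19 at -0.0156; in the authors' table, Acaa1b at -0.0931, Pex13 at -0.00146 and Pex16 at -0.0242; and with the mean of a gene's probes, Acot8 at 0.0157. On slide 1, Acaa1b was at -0.0468, Crat at 0.413, Acot8 at 0.0446, Pex16 at -0.109 and Pxmp4 at 0.0409, and on slide 2, Acaa1a was at -0.0199, Crot at -0.143, Decr2 at 0.0511, Pex13 at -0.0436 and Pex19 at -0.0221. Without single replicates, values ran from -0.0503 to 0.141 for Acaa1a, -0.0780 to 0.136 for Acaa1b, -0.0486 to 0.168 for Nudt19, -0.102 to 0.323 for Crot, -0.235 to 0.278 for Crat, -0.223 to 0.0101 for Decr2, -0.0731 to 0.0378 for Acot8, -0.00680 to 0.146 for Pex13, -0.0491 to 0.0645 for Pex16 and -0.0561 to 0.0813 for Pex19. Acox2, Cat and Nudt7 met the unadjusted limit whichever replicate was left out. They were picked on the same arrays, of which each such fit drops only 1, so this is no separate check. The cause of the shifts between settings was not tested. With 4 arrays a genotype and a median SE of 0.13 over the members, small differences cannot be resolved.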

Other observations

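Among the other peroxisomal genes, Hao2, which encodes an oxidase of hydroxy acids, had the largest difference and was picked out after its values were seen. Its values were 0.05, 0.90, 0.05 and 0.26 in wild-type and 1.82, -0.55, 2.39 and 1.69 in Rap1-deficient mice. Of the Rap1-deficient values, 3 lay above every wild-type value, and that of replicate 2 lay under all of them. The log2 fold change was 1.02 (SE 0.57, adjusted p = 0.80 in limma), so the spread within the Rap1-deficient group was larger than the difference between means.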
